A study of Mus musculus with 26 samples.

Results

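The IL-6 family genes described here are the ligands Il6, Lif and Il11, the receptor chains Il6ra, Il11ra1, Il6st, Osmr and Lifr, and the feedback inhibitor Socs3. They were chosen by symbol for their place in gp130 signalling, and these 9 symbols are 9 of the 24421 genes in the deposited count tables. All 9 had enough counts to be tested. They were read in 26 bulk RNA sequencing libraries of stromal cells from the hearts of C57BL/6 mice of the strain B6.129S4-Pdgfratm11(EGFP)Sor/J, in which a nuclear green fluorescent protein (GFP) is made from the Pdgfra locus. Every library, the undamaged ones included, therefore carries this reporter allele, which marks all cells in which Pdgfra is active rather than one fibroblast subtype. Cells negative for CD45 and CD31 and positive for GFP were sorted after enzymatic dissociation and divided by the surface protein SCA-1, the product of Ly6a. The labels give no age, and whether libraries came from separate animals or from pools is not stated in them, so every p-value measures the spread between these libraries. Changes are given as log2 differences throughout. Values after ± are SD for CPM (read counts scaled to library size with TMM factors) and standard errors for log2 differences.

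Hearts were injured by tying off the left anterior descending (LAD) artery, and this preceded sampling by 7 days in 6 libraries, by 14 days in 4 and by 28 days in 7, and 9 libraries came from undamaged hearts. By SCA-1 there were 3 positive and 3 negative libraries at day 7, 2 and 2 at day 14, 4 and 3 at day 28, and 5 and 4 from undamaged hearts. At day 7 the labels give the gate of 2 libraries, and the gate of the other 4 was taken from the names of the deposited tables. Those names and the labels gave the same gate in 22 of 22 libraries where both exist. In the day 7 libraries Ly6a averaged 308 ± 19.1 CPM in the positive gate and 32.6 ± 3.0 CPM in the negative gate (SD, n = 3 each). The tag R60 stands in the table names of 16 libraries, called the R60 set here, and is absent from 10, called the non-R60 set. Undamaged hearts gave 4 R60 and 5 non-R60 libraries, day 7 gave 4 and 2, day 14 gave 4 and 0, and day 28 gave 4 and 3. What the tag means is not given in the sources used here, and within the R60 set each number in a title occurs at a single time, so number and time cannot be told apart there.

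The libraries held 6792786 to 48836726 counts in genes, at which 3 counts correspond to 0.0583 to 0.416 CPM. Reads outside genes were 5.53% to 18.7% of all reads counted in 25 libraries, and 55.8% in E2 positive of day 28. Between 12325 and 16013 genes had counts, and the 3 lowest values belonged to undamaged R60 libraries (A6 negative, B7 negative and B7 positive). Xist, which is made from the inactive X, exceeded 20 CPM in 4 day 7 and 2 day 14 libraries and in none of the others. Pdgfra was present at 337 to 795 CPM, while Ptprc, the gene of CD45, stayed at 2.06 CPM or less. The 13 leukocyte genes summed to 27.6 to 60.7 CPM at day 7, against 7.47 to 36.9 CPM in undamaged hearts. The 7 endothelial genes summed to 122 to 200.1 CPM at day 7, against 234 to 463 CPM in undamaged hearts, and the 4 genes of epicardium and mesothelium to 6.24 to 68.2 CPM at day 7, against 0 to 8.94 CPM in undamaged hearts. No listed gene of these cell types was at 0 in every library, and their part in the results was not tested. Over all libraries the mural list summed to 62.3 to 512 CPM, the cardiomyocyte list to 4.62 to 44.7, the Schwann cell list to 0.171 to 4.70 and the fibroblast list to 48703 to 85459.5 CPM. In bulk libraries, fewer cells that express a gene and less RNA of it per cell cannot be told apart.

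Cytokines of the IL-6 family signal through gp130, the product of Il6st, which nearly all cells carry. A second chain gives each cytokine its specificity. IL-6 binds the product of Il6ra and IL-11 that of Il11ra1, and each of these complexes then joins gp130 molecules, whereas LIF uses a pair of LIFR and gp130, and oncostatin M a pair of OSMR and gp130. Bound receptors activate Janus kinases, which phosphorylate STAT3. Socs3 is a direct STAT3 target, and its protein binds gp130 and restrains the receptor, so that its transcript is widely read as a mark of recent pathway activity, although other signals raise it as well. In the heart, fibroblasts are a known source of IL-6, and gp130 cytokines have been studied in injury repair, cardiomyocyte survival and fibrosis.

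Il6, Lif, Osmr and Socs3 changed differently between the library sets by day 28, as described further on, and the stretches around their starts are shown for that reason. They come from the RefSeq table of GRCm38.p6 promoters, which held all 9 genes, and cover 250 bases before to 50 after the start, written 5′ to 3′ on the strand of the gene. Capitals mark matches, on either strand, to 4 short motifs. TTCNNNGAA is the STAT motif, TGANTCA the AP-1 motif in a loose form that allows any middle base, TGACGTCA the cyclic AMP response element and GGANTTTCC the kappaB motif. None of the matches overlap each other. Il6 lies at chr5:30012864-30013163 on the plus strand, Lif at chr11:4257318-4257617 on the plus strand, Osmr at chr15:6874264-6874563 on the minus strand and Socs3 at chr11:117969317-117969616 on the minus strand.
Il6: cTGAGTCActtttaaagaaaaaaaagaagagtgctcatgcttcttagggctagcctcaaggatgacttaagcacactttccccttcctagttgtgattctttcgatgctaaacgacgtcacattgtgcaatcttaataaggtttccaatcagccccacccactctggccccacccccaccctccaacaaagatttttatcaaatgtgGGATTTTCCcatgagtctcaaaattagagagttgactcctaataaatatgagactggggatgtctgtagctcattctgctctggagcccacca
Lif: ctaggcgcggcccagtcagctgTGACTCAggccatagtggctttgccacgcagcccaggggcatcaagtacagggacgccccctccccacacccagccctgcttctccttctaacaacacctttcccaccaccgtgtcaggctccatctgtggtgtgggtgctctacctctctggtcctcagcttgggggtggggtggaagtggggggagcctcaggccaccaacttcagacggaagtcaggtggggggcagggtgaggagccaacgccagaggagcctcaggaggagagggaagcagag
Osmr: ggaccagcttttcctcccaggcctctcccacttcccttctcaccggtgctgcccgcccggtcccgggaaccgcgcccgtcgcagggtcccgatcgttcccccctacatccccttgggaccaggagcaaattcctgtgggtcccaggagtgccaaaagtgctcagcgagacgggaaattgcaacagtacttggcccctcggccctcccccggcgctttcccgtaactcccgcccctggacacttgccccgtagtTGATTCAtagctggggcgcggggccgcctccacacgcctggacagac
Socs3: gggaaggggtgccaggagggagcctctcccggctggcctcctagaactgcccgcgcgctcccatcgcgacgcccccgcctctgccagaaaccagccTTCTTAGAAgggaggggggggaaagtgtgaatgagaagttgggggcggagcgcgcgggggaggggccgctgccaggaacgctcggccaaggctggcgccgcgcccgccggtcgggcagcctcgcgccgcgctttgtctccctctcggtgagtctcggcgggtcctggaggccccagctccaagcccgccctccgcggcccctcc
The Il6 stretch held an AP-1 match starting at base -249 and a kappaB match starting at base -43, counted from the annotated start. Lif held an AP-1 match at -228 and Osmr a match to the loose form, TGATTCA, at base 4, while Socs3 held a STAT match at -154. Of all 32851 promoters of this length, 7.81% held the AP-1 motif, 8.3% the STAT motif, 1.79% the cyclic AMP response element and 1.25% the kappaB motif. Among the others, Il11 held an AP-1 match at -98, and no match was found in the windows of Il6ra, Il11ra1, Il6st and Lifr. A match describes the letters and shows no binding.

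Per kilobase of exon, the average over the 26 libraries was highest for Socs3 at 391 CPM per kb and Il6 at 132 CPM per kb. The shared receptor Il6st followed at 59.2, then Il11ra1 at 33.0, Osmr at 13.2 and Lifr at 5.77 CPM per kb. Lif stood at 4.59, Il6ra at 2.63 and Il11 at 0.611 CPM per kb. The receptor chains for oncostatin M and IL-11 were thus present at higher levels per length than the specific IL-6 receptor chain. Oncostatin M itself is mainly a leukocyte product, and its gene Osm was at 1.85 CPM or less in every library. Il11ra2 and Gm13306, copies closely related to Il11ra1, had 0 counts in all 26 libraries, so any reads that they share with Il11ra1 cannot be told apart.

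**Figure D1:**
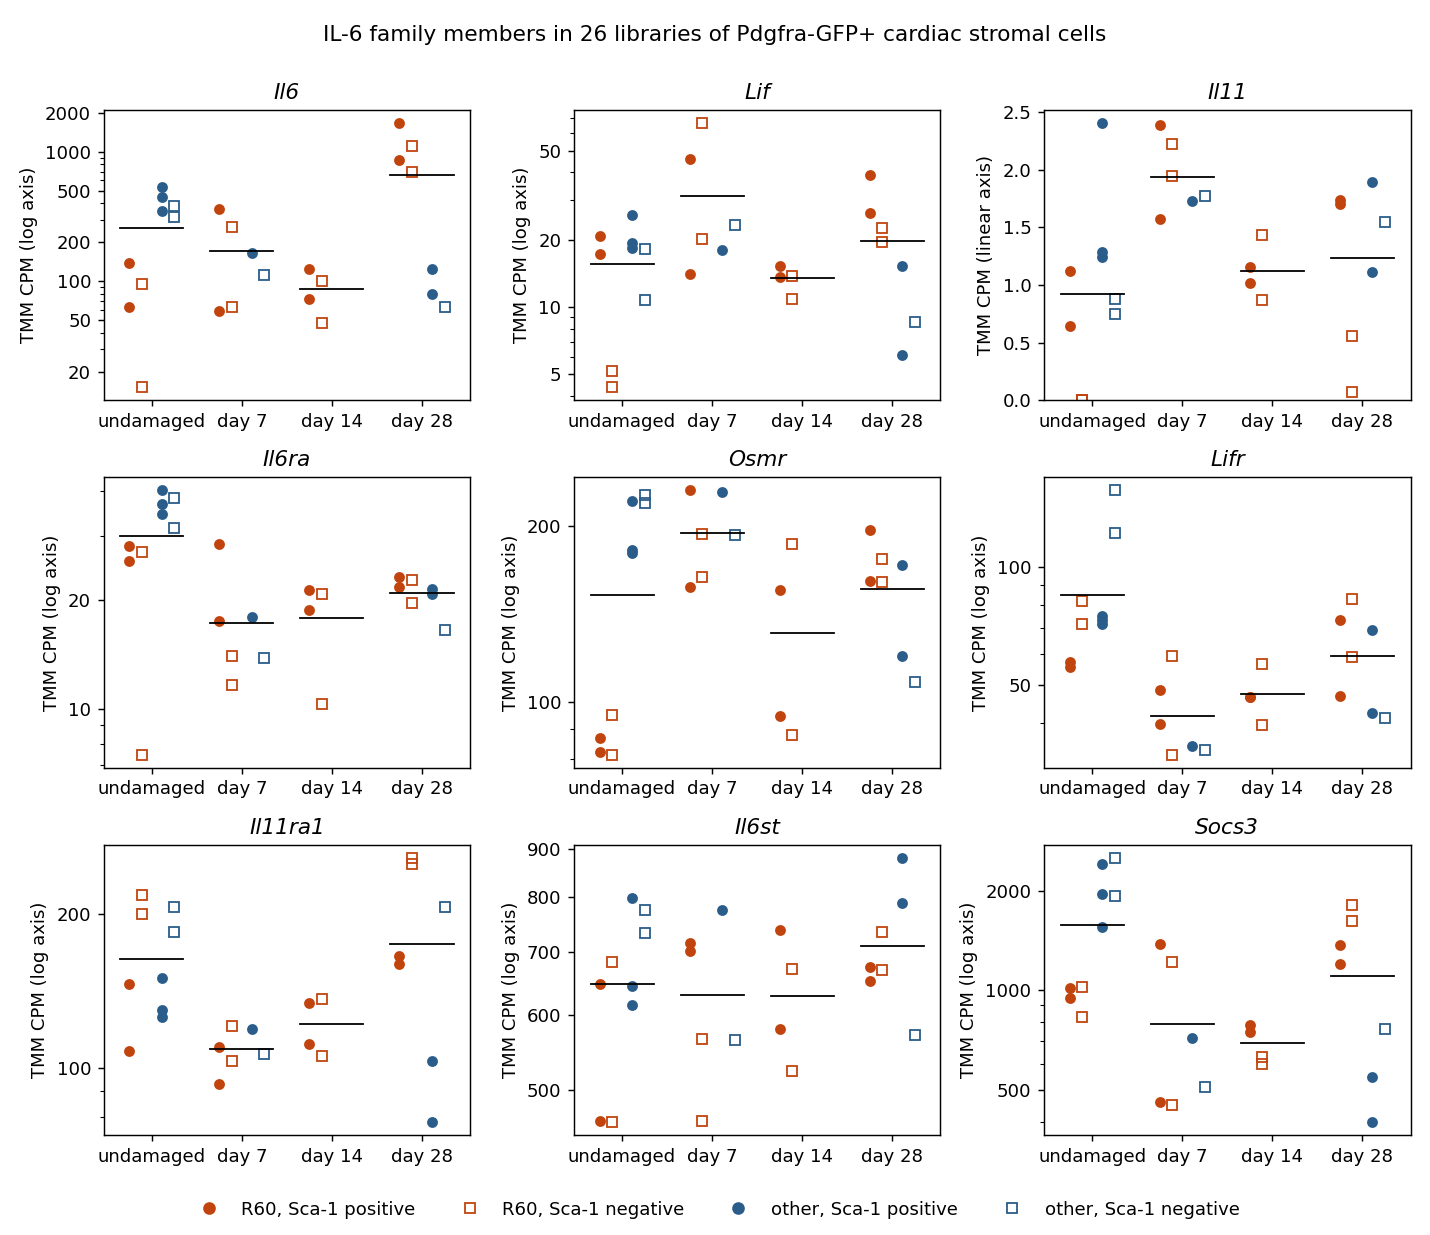
TMM CPM of each IL-6 family gene in each of 26 libraries by time, with the R60 set in red at the left and the non-R60 set in blue at the right of each time, filled circles for Sca-1 positive, open squares for Sca-1 negative libraries, and a bar at the mean of the time. Il6 and Socs3 show the R60 libraries below the non-R60 ones in undamaged hearts and above them at day 28.

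The first comparison asked how the genes change after ligation, over both gates and both sets. At day 7 the receptor chains Lifr, Il6ra and Il11ra1 and the inhibitor Socs3 fell, and no gene of the family passed as higher. Lif did pass as higher with DESeq2, as given further on. With edgeR's quasi-likelihood test and Benjamini-Hochberg adjustment over all 13392 genes, from which all adjusted p-values here come unless another tool is named, 4 of 9 were lower, where 11.2% of all genes were lower and 22.8% changed in either direction. The median log2 difference was -0.58 over the 9 genes and -0.04 over all genes tested. At day 14, Lifr and Socs3 were lower, 2 of 9 against 3.14% of all genes. At day 28, 0 of 9 passed, where 5.39% of all genes did; 3 had an unadjusted p under 0.05, and DESeq2 also called 0, against 8.21% of all genes. The libraries with high Xist touch the early times: without them Socs3 passed at day 7 and Lifr, Il6ra and Il11ra1 did not (adjusted p between 0.101 and 0.268), where 6.35% of all genes did, and no gene passed at day 14, where 4.1% did. With the 9 pairs of libraries that share a code or title number summed to 1 library each, leaving 17, Lifr and Il6ra passed at day 7, where 16.7% of all genes did, and none at day 14, where 4.28% did.

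Lifr (ENSMUSG00000054263.12, GRCm38 chromosome 15, 7090614 to 7197489, plus strand) encodes the chain through which LIF signals. In day 7 libraries its level was between 33.3 and 59.2 CPM (median 37.4), against between 55.5 and 156 CPM (median 73.0) in undamaged hearts. Of the 6 day 7 libraries, 5 were below the lowest undamaged one. The difference was -1.02 ± 0.21 (adjusted p = 0.000782) on the log2 scale at day 7, and it was called whichever library was left out and with code pairs summed, at -1.12 ± 0.24 (adjusted p = 0.00438). At day 14 the 4 libraries held 39.5, 46.6, 46.7 and 56.5 CPM, a difference of -0.86 ± 0.24 (adjusted p = 0.0221) that did not pass without D1 positive, D9 positive or D9 negative, nor in R60 libraries alone, -0.52 ± 0.20 (adjusted p = 0.116). At day 28 the difference was -0.53 ± 0.20 (adjusted p = 0.115), with levels of 41.3 to 82.6 CPM.

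Il6ra (ENSMUSG00000027947.11, GRCm38 chromosome 3, 89864059 to 89913196, minus strand), the chain specific for IL-6, was between 11.7 and 28.7 CPM (median 15.7) at day 7, against between 7.46 and 40.3 CPM (median 31.8) in undamaged hearts. Most day 7 libraries lay below most undamaged ones, but the ranges overlapped, with day 7 library 4A high and undamaged library B7 negative low. It fell by 0.79 ± 0.25 (adjusted p = 0.0201) at day 7, and by 0.88 ± 0.21 (adjusted p = 0.00714) with code pairs summed. Without the day 7 libraries 1B, 4B or the unnumbered negative one the adjusted p was 0.0511 to 0.0579. The differences at day 14, -0.78 ± 0.28 (adjusted p = 0.0885), and at day 28, -0.54 ± 0.23 (adjusted p = 0.189), did not pass. Without the undamaged library B7 negative they were -0.88 and -0.65 (adjusted p = 0.00539 and 0.0201).

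Il11ra1 (ENSMUSG00000073889.10, GRCm38 chromosome 4, 41699989 to 41769474, plus strand), the chain specific for IL-11, was between 93.0 and 121 CPM (median 108) at day 7, against between 108 and 218 CPM (median 149.7) in undamaged hearts. The 6 day 7 libraries were narrow in range, and the lowest undamaged library, A6 positive, was the 1 of 9 that lay within it. It fell by 0.58 ± 0.20 (adjusted p = 0.0352) at day 7, with an adjusted p of 0.0538 to 0.0771 when any one of 8 libraries was left out (the 4 undamaged negative ones and day 7 libraries 1A, 1B, 4A and the unnumbered negative one), 0.13 without the 3 libraries of fewest genes and 0.141 with code pairs summed. At day 28 the level was 175 ± 69.0 CPM (SD, n = 7), against 109 ± 10.4 CPM at day 7 (n = 6), a difference of 0.66 ± 0.21 (adjusted p = 0.0377). This was the 1 gene of 9 called between day 28 and day 7, where 11.6% of all genes were called. It did not pass when any one of 10 libraries was left out, the 6 of day 7 and E4 negative, B4 positive, B4 negative and B6 negative of day 28 (adjusted p between 0.0528 and 0.106), nor with code pairs summed, 0.57 ± 0.24 (adjusted p = 0.171), where 5.83% of all genes passed.

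Il6st and Osmr did not pass in any of these comparisons. Il6st (ENSMUSG00000021756.12, GRCm38 chromosome 13, 112464070 to 112510086, plus strand) averaged 647 ± 121 CPM in undamaged hearts (SD, n = 9), 631 ± 118 at day 7 (n = 6), 628 ± 95.4 at day 14 (n = 4) and 711 ± 101 at day 28 (n = 7). The gp130 transcript thus varied between libraries by more than its means varied between times, with a log2 difference of -0.03 ± 0.14 (adjusted p = 0.901) at day 7. Osmr (ENSMUSG00000022146.12, GRCm38 chromosome 15, 6813577 to 6874969, minus strand) averaged 153 ± 65.0, 195 ± 31.1, 131 ± 47.9 and 156 ± 31.5 CPM over the same groups. Its day 7 difference of 0.36 ± 0.24 (adjusted p = 0.293) pooled library sets whose values are given further on.

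Socs3 (ENSMUSG00000053113.3, GRCm38 chromosome 11, 117966079 to 117970047, minus strand) was between 449 and 1376 CPM (median 615) at day 7, against between 828 and 2519 CPM (median 1558) in undamaged hearts. The 4 day 14 libraries held 599.7, 629.7, 749 and 785 CPM, all below the lowest undamaged library. It fell by 0.99 ± 0.33 (adjusted p = 0.0297) at day 7 and by 1.21 ± 0.39 (adjusted p = 0.0475) at day 14. At day 28 the 7 libraries spread from 399 to 1811 CPM and the difference from undamaged hearts was -0.54 ± 0.31 (adjusted p = 0.351). The day 7 call did not hold when any one of 6 libraries was left out (undamaged F3 positive and F3 negative, both unnumbered day 7 libraries, 1A and 1B; adjusted p between 0.0541 and 0.0793) or with code pairs summed, -1.11 ± 0.40 (adjusted p = 0.0664). In R60 libraries alone the day 7 difference was -0.13 ± 0.30 (adjusted p = 0.794). The day 14 call did not hold when any one of 9 libraries was left out, the 5 undamaged non-R60 and the 4 of day 14 (adjusted p between 0.0611 and 0.154), nor in R60 libraries alone, -0.50 ± 0.30 (adjusted p = 0.327).

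None of the 3 ligands passed in the comparisons over all libraries, and each varied widely within a time. Il6 (ENSMUSG00000025746.11, GRCm38 chromosome 5, 30013114 to 30019981, plus strand) averaged 259 ± 185 CPM in undamaged hearts, 171 ± 121 at day 7, 86.6 ± 32.8 at day 14 and 659 ± 611 at day 28. Its day 28 difference was 1.32 ± 0.61 (adjusted p = 0.227), and neighbouring times in the order of its levels did not differ beyond the larger of their SDs. Lif (ENSMUSG00000034394.14, GRCm38 chromosome 11, 4257557 to 4272514, plus strand), a cytokine first known for its action on leukaemia cells, was between 14.1 and 66.5 CPM (median 21.8) at day 7, against between 4.39 and 25.9 CPM (median 18.1) in undamaged hearts, with a difference of 1.01 ± 0.38 (adjusted p = 0.0533). DESeq2 gave 1.03 ± 0.37 (adjusted p = 0.0256) for the same comparison. Il11 (ENSMUSG00000004371.15, GRCm38 chromosome 7, 4772373 to 4782859, minus strand), a cytokine studied in fibroblast activation, was near the detection limit, with 0 counts in 2 undamaged R60 libraries and 21 to 36 counts in each day 7 library. It averaged 1.94 ± 0.312 CPM at day 7 and 0.924 ± 0.730 CPM in undamaged hearts, a difference of 1.05 ± 0.61 (adjusted p = 0.229).

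Ordered by mean level, neighbouring times lay within the larger of their SDs in 24 of 27 cases. The exceptions were Il11 and Osmr, whose means at day 28 and day 7 lay further apart than that, and Il11ra1, whose means at day 14 and in undamaged hearts did.

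**Figure D2:**
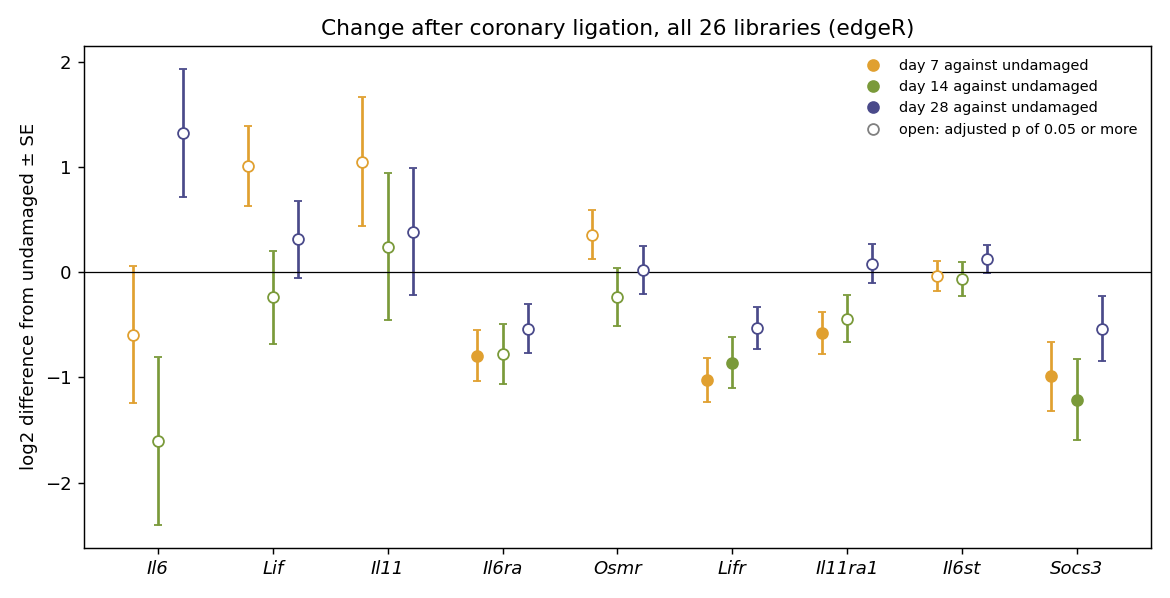
Log2 difference from undamaged hearts, with its standard error, for each gene at day 7, day 14 and day 28 over all 26 libraries; filled symbols have an adjusted p under 0.05. Lifr and Socs3 are filled at day 7 and day 14, Il6ra and Il11ra1 are filled at day 7, and none is filled at day 28.

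The second comparison asked whether the R60 and non-R60 sets show the same change after ligation. They did not for Il6, Lif, Osmr and Socs3 at day 28, where the change from undamaged to day 28 differed between the sets. In the test of that difference (time by set, with the gate as a term, chosen after the data were seen), 4 of 9 genes passed, where 20.6% of all genes did. At day 7 it was 3 of 9, Il6, Osmr and Socs3, where 4.68% of all genes passed. Both sets' own values follow, gene by gene. The fits within a set count both libraries of a code pair as separate. They were not repeated with pairs summed, so their p-values do not allow for pairing.

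For Il6, the R60 libraries of day 28 held 704, 858, 1111 and 1670.2 CPM, against 15.3, 63.0, 95.2 and 139 CPM in undamaged R60 libraries. The non-R60 libraries held 63.5, 79.8 and 125 CPM at day 28, against 311, 352, 381, 444 and 534 CPM in undamaged hearts. The groups did not overlap in either set and lay in opposite order. All R60 libraries were higher at day 28 and all non-R60 libraries were lower. How many of all genes lack overlap between groups this small was not counted, here or for the genes below. Within the R60 set Il6 rose by 3.74 ± 0.65 (adjusted p = 0.00159), and within the non-R60 set it fell by 2.19 ± 0.27 (adjusted p = 0.000639). The difference between these changes was 6.03 ± 0.77 (adjusted p = 6.95e-06). At day 7 the R60 libraries held 58.7, 63.1, 263 and 364 CPM and the non-R60 libraries 111 and 164 CPM. The change from undamaged hearts was 1.24 ± 0.60 (adjusted p = 0.149) in the R60 set and -1.53 ± 0.31 (adjusted p = 0.00696) in the non-R60 set, which differed by 2.81 ± 0.79 (adjusted p = 0.0399). Both R60 libraries of title number 66 were above both of number 63 at day 7, at 364 and 263 CPM for 66 and 58.7 and 63.1 CPM for 63.

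Socs3, the feedback inhibitor, had the same order of sets. Its R60 libraries held 1205, 1367, 1619.6 and 1811 CPM at day 28, against 828, 947, 1019 and 1021 CPM in undamaged hearts, and its non-R60 libraries 399, 545 and 762 CPM at day 28, against 1558, 1932, 1958, 2410.1 and 2519 CPM in undamaged hearts. Again neither set overlapped, and the R60 set was higher and the non-R60 set lower at day 28. The non-R60 change was a fall of 1.88 ± 0.25 (adjusted p = 0.00103). That of the R60 set, 0.61 ± 0.30 (adjusted p = 0.196), did not pass on its own. The changes differed by 2.49 ± 0.42 (adjusted p = 0.000152) at day 28 and by 1.63 ± 0.45 (adjusted p = 0.036) at day 7. In the non-R60 set Socs3 also fell at day 7, by 1.73 ± 0.30 (adjusted p = 0.00312), while the R60 set gave the value of -0.13 stated above.

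Osmr was 160.4, 161, 176 and 197 CPM in R60 libraries at day 28, against 81.3, 82.1, 86.6 and 95.2 CPM in undamaged R60 libraries. In the non-R60 set it was 108, 119.9 and 172 CPM at day 28, against 180.3, 182, 219, 221 and 226 CPM in undamaged hearts. The oncostatin M receptor transcript rose by 0.96 ± 0.21 (adjusted p = 0.00698) in the R60 set and fell by 0.64 ± 0.17 (adjusted p = 0.0342) in the non-R60 set, and the groups did not overlap in either. The changes differed by 1.60 ± 0.29 (adjusted p = 0.000325). At day 7 it rose by 1.10 ± 0.21 (adjusted p = 0.00185) in the R60 set, against 0.06 ± 0.19 (adjusted p = 0.874) in the non-R60 set, with a difference of 1.06 ± 0.31 (adjusted p = 0.0475).

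Lif was 19.6, 22.6, 26.3 and 38.9 CPM in R60 libraries at day 28, against 4.39, 5.18, 17.2 and 20.9 CPM in undamaged R60 libraries. The non-R60 libraries held 6.10, 8.56 and 15.3 CPM at day 28, against 10.8, 18.1, 18.3, 19.4 and 25.9 CPM in undamaged hearts. The ranges overlapped in both sets, and neither change passed on its own, with 1.11 ± 0.48 (adjusted p = 0.145) in the R60 set and -0.88 ± 0.32 (adjusted p = 0.0943) in the non-R60 set. Their difference passed at 2.08 ± 0.62 (adjusted p = 0.0194). At day 7, Lif rose by 1.60 ± 0.49 (adjusted p = 0.0284) in the R60 set, where the 4 libraries held 14.1, 20.2, 45.9 and 66.5 CPM. The 2 highest of these were the libraries of title number 66.

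Receptor chains Il6ra, Lifr, Il11ra1 and Il6st did not pass the test of the set difference at day 7 or day 28. For Lifr the day 28 difference was 0.85 ± 0.33 (adjusted p = 0.0673), and for Il6ra 0.92 ± 0.39 (adjusted p = 0.0965). Within the non-R60 set Il6ra was lower at day 7 by 1.17 ± 0.18 (adjusted p = 0.00167) and at day 28 by 0.90 ± 0.15 (adjusted p = 0.00337), with no overlap at either time. In the R60 set its values were -0.31 ± 0.35 (adjusted p = 0.564) at day 7 and -0.06 ± 0.35 (adjusted p = 0.931) at day 28. Lifr fell at day 7 by 1.5 ± 0.36 (adjusted p = 0.0165) in the non-R60 set, against -0.57 ± 0.20 (adjusted p = 0.0539) in the R60 set. Within the R60 set, day 28 was higher than day 7 for Il6 by 2.50 ± 0.62 (adjusted p = 0.0128) and for Il11ra1 by 0.93 ± 0.21 (adjusted p = 0.00843), where 13.8% of all genes changed. Genes of the family called within the R60 set were 3 at day 7, 0 at day 14 (3 at an unadjusted p under 0.05) and 2 at day 28, where 19.5%, 8.5% and 11.6% of all genes were called. In the non-R60 set they were 4 at day 7 and 4 at day 28, where 16.2% and 13.1% of all genes were called.

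**Figure D3:**
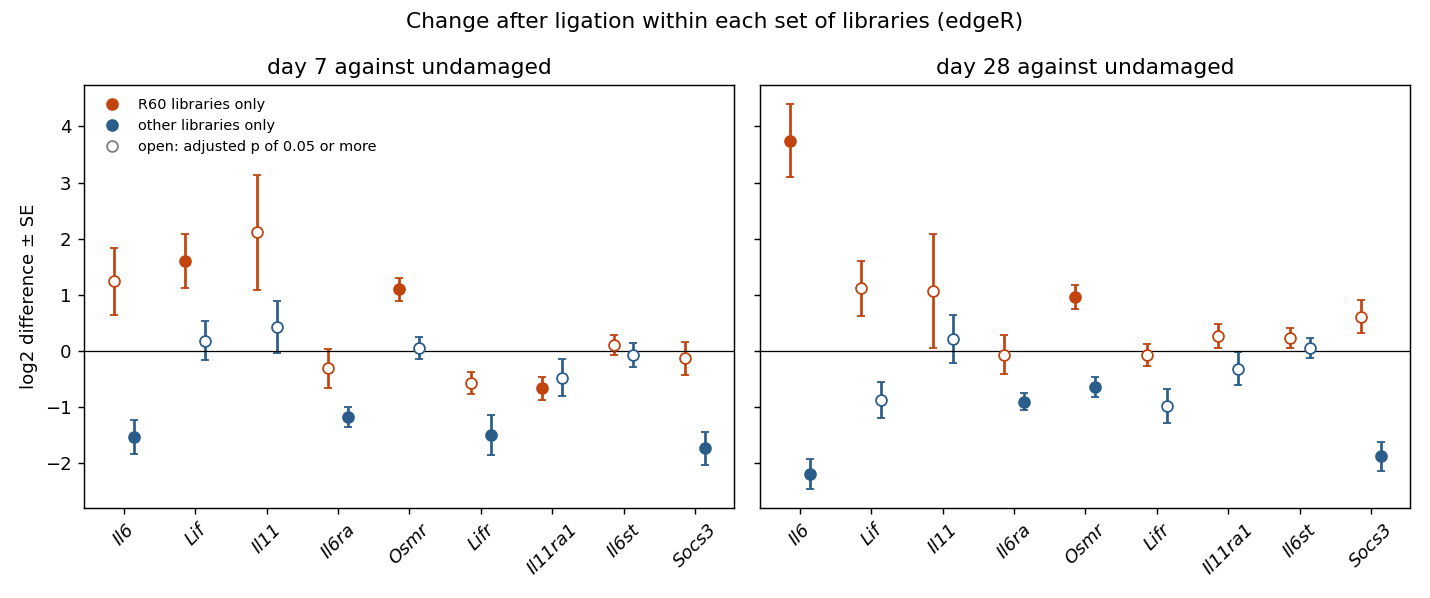
Log2 difference from undamaged hearts, with its standard error, at day 7 and day 28, computed in R60 libraries (red, left) and in non-R60 libraries (blue, right); filled symbols have an adjusted p under 0.05. At day 28 Il6 and Osmr lie above 0 in the R60 set and below 0 in the non-R60 set, without overlap of their error bars.

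Each of these differences between sets was refitted without each undamaged library and each library of the day compared. At day 28, Il6, Osmr and Socs3 passed in 16 of 16 fits each, and Lif in 15 of 16, the exception being the fit without E2 positive of day 28 (adjusted p = 0.0661). With code pairs summed, all 4 passed at day 28, Il6 at 5.81 ± 0.80 (adjusted p = 0.000558), Osmr at 1.60 ± 0.35 (adjusted p = 0.00914), Socs3 at 2.45 ± 0.50 (adjusted p = 0.00675) and Lif at 1.91 ± 0.57 (adjusted p = 0.0442), where 10.2% of all genes did. Without the 3 undamaged R60 libraries of fewest genes, which leaves A6 positive as the single undamaged R60 library, Il6 gave 6.49 ± 1.08 (adjusted p = 0.00102), Osmr 1.61 ± 0.43 (adjusted p = 0.0207), Socs3 2.45 ± 0.63 (adjusted p = 0.0172) and Lif 1.26 ± 0.74 (adjusted p = 0.298), where 9.78% of all genes passed. The differences at day 7 passed in fewer of the fits. Il6 passed in 7 of 15 fits, Osmr in 4 of 15 and Socs3 in 9 of 15, each failing without either unnumbered day 7 library, 4A or 4B. None of the 3 passed with code pairs summed (adjusted p = 0.115 for Il6, 0.157 for Osmr and 0.154 for Socs3, with 0.837% of all genes passing) or without the libraries of fewest genes (0.121, 0.293 and 0.276, with 0.881% of all genes passing).

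Averaged over times and gates, no gene of the family passed between the R60 and the non-R60 set, where 0.285% of all genes did; 2 of the 9 had an unadjusted p under 0.05, and DESeq2 called 0, against 2.32% of all genes. For Il6 this average difference was 0.11 ± 0.81 (adjusted p = 0.97), and for Osmr -0.46 ± 0.20 (adjusted p = 0.32).

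Other genes moved with the sets. The 13 early response genes that tissue dissociation is known to raise summed to 18948 to 34074 CPM in the R60 and 14259.8 to 28111 CPM in the non-R60 libraries of day 28, with overlapping ranges. In undamaged hearts they summed to 24079 to 27459 CPM in the R60 and 33721 to 47731 CPM in the non-R60 libraries, without overlap. The part of this response in the levels of Il6 and Socs3, which are themselves rapidly induced genes, was not tested. Leukocyte genes summed to 9.45 to 32 CPM in the R60 and 7.30 to 19.1 CPM in the non-R60 libraries of day 28, with overlap. Of the marker lists, 3 did not overlap between the sets at day 28. The fibroblast list summed to 75163 to 85459.5 CPM in R60 and 62937 to 68732 CPM in non-R60 libraries, the epicardium and mesothelium list to 16.9 to 94.1 CPM in R60 and 8.64 to 16.2 CPM in non-R60 libraries, and the Schwann cell list to 0.693 to 1.96 CPM in R60 and 2.08 to 3.64 CPM in non-R60 libraries. In undamaged hearts the cardiomyocyte list did not overlap either, at 19.8 to 44.7 CPM in R60 and 8.08 to 17 CPM in non-R60 libraries. The part of these cells in the set differences was likewise not tested.

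A list of 18 STAT3 response genes outside the family followed the sets at day 28. It summed to 10949.5 to 15539 CPM in R60 and 2638 to 5218 CPM in non-R60 libraries of day 28, and to 4406 to 5236 CPM in R60 and 7352 to 10759 CPM in non-R60 libraries of undamaged hearts. In the test of the set difference at day 28, the change from undamaged hearts was higher in the R60 set for 15 of 18 and lower for 0. Of all genes, 20.6% passed in either direction. The list median was 3.32 log2 against -0.01 over all genes. These values and those that follow are the R60 change minus the non-R60 change, not differences in level at day 28. The metallothionein Mt2 had 5.12 ± 0.60 (adjusted p = 2.49e-06), the NF-kappaB cofactor Bcl3 4.83 ± 0.55 (adjusted p = 1.63e-06) and the kinase gene Pim1 4.13 ± 0.54 (adjusted p = 8.42e-06). The growth regulator Myc had 3.20 ± 0.39 (adjusted p = 3.88e-06), the protease inhibitor Serpina3n 3.85 ± 0.54 (adjusted p = 2.03e-05) and the metallothionein Mt1 3.45 ± 0.49 (adjusted p = 2.53e-05). At day 7, 1 of 18 passed, near the 4.68% of all genes that did, namely Myc at 1.57 ± 0.41 (adjusted p = 0.0286). Several of these genes also respond to other signals of injury and stress.

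Of 12 signal transducers, 3 had a higher and 1 a lower change in the R60 set in that test at day 28, where 20.6% of all genes passed in either direction. The adaptor Shc1 gave 0.85 ± 0.18 (adjusted p = 0.00147), the kinase Jak1 0.71 ± 0.21 (adjusted p = 0.0194) and Stat3 1.63 ± 0.24 (adjusted p = 3.85e-05). The kinase Tyk2 gave -1.01 ± 0.22 (adjusted p = 0.00169). Stat3 also stands on the list of STAT3 response genes. Of 11 inhibitors other than Socs3, 3 had a higher change in the R60 set, a share near that of all genes. These were Cish at 4.85 ± 0.98 (adjusted p = 0.00106), Socs1 at 2.21 ± 0.63 (adjusted p = 0.014) and the phosphatase gene Ptpn2 at 1.63 ± 0.26 (adjusted p = 0.0001). Neither of the 2 other receptors tested, of 4 listed, passed. At day 7 the adaptor gene Shc1 passed at 0.81 ± 0.19 (adjusted p = 0.0163), and no inhibitor or other receptor on the lists did.

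**Figure D4:**
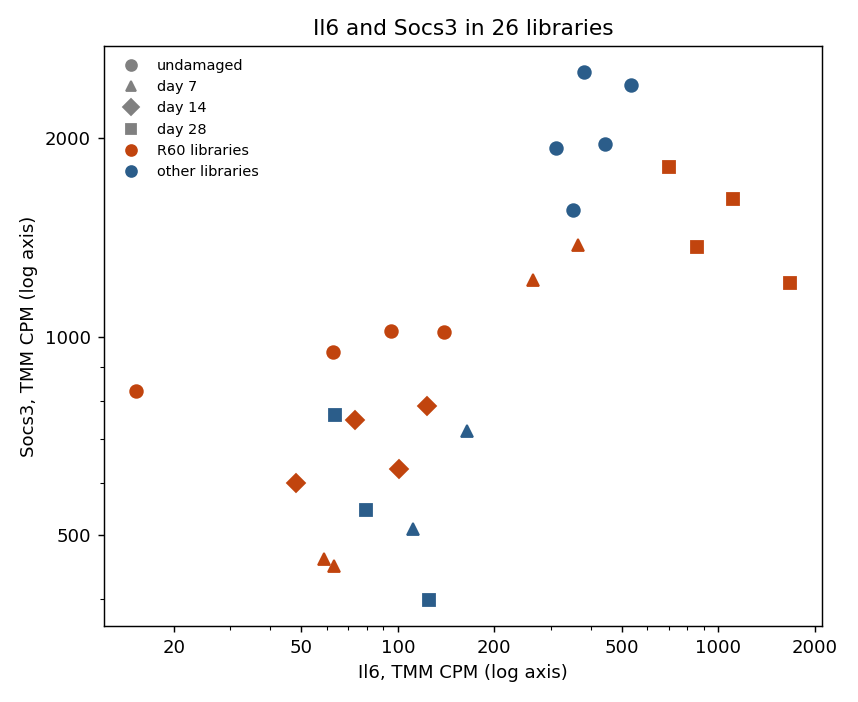
Socs3 against Il6, both as TMM CPM on log axes, in 26 libraries, with the time as the symbol and the set as the colour (R60 red, non-R60 blue). The 4 R60 libraries of day 28 hold the highest Il6 values, from 704 to 1670.2 CPM, and the 3 non-R60 libraries of day 28 sit in the lower left with 399 to 762 CPM of Socs3.

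Over the 26 libraries, log2 levels of Il6 and Socs3 correlated at r = 0.709, Il6 and Lif at 0.604, Il6 and Osmr at 0.577, and Il11 and Il11ra1 at -0.602. The libraries share times and sets, so these values describe them and carry no test. Among 9898 genes with a mean of at least 5 CPM, those most like Il6 were Map3k8 (r = 0.939), Ptgs2 (r = 0.925) and Mcl1 (r = 0.924). Those nearest to Socs3 were Zc3h12a (r = 0.938), Zfp36 (r = 0.936) and Gadd45g (r = 0.925), and those nearest to Osmr were Serpina3f (r = 0.875), Stat3 (r = 0.858) and Serpina3n (r = 0.843). For Lif they were Fosl1 (r = 0.851), Tsku (r = 0.822) and B4galt5 (r = 0.809), and for Il11 Setd8 (r = 0.874), Itgb3 (r = 0.8) and Map6 (r = 0.796). Among the receptor chains, Il11ra1 was nearest to Apoe (r = 0.925), Trip6 (r = 0.882) and Ggt5 (r = 0.879), and Lifr to Ehd4 (r = 0.872), Aaed1 (r = 0.868) and Enpp2 (r = 0.848). Il6ra was nearest to Scin (r = 0.859), Ntn1 (r = 0.843) and Nup205 (r = 0.83), and Il6st to Smc1a (r = 0.783), Lamc1 (r = 0.781) and Acap2 (r = 0.779).

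The third comparison, the stated purpose of the sort, set Sca-1 positive against Sca-1 negative cells. No gene of the family differed between the gates of undamaged hearts, day 14 or day 28 in the fit without pairing, where 3.1%, 0.0507% and 0.594% of all genes did; 3, 0 and 1 of the 9 had an unadjusted p under 0.05, and DESeq2 called 1, 0 and 1, each time Il11ra1, where it called 5.97%, 0.239% and 2.92% of all genes. At day 7, with the gate from the table names, 0 of 9 passed, where 0.206% of all genes did; 1 had an unadjusted p under 0.05 (Il6st, 0.45 ± 0.21, adjusted p = 0.954), and DESeq2 called 0, against 0.47% of all genes. With the code that both gates share as a block, 2 of 9 passed in undamaged hearts, where 4.19% of all genes did. These were Lif, higher in the positive gate, and Il11ra1, lower in it.

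Il11ra1 was 108, 126, 129.9, 146 and 149.7 CPM in Sca-1 positive and 185, 200.3, 207 and 218 CPM in Sca-1 negative libraries of undamaged hearts. At day 28 it was 78.2, 103, 159.9 and 166 CPM in the positive and 207, 251 and 258 CPM in the negative gate. The gates did not overlap at either time, and every negative library was the higher one. The share of all genes whose gates do not overlap was not counted. The mural list moved the same way, with 91.9 to 138 CPM in the positive and 245 to 512 CPM in the negative gate of undamaged hearts, without overlap, and 62.3 to 192 CPM (median 78.6) in the positive and 144 to 251 CPM (median 156) in the negative gate of day 28. The cardiomyocyte list of day 28 summed to 4.62 to 11.7 CPM in the positive and 12.6 to 27.2 CPM in the negative gate. The part of these cells in the gate differences of Il11ra1 and Lifr was not tested. The undamaged difference was -0.62 ± 0.18 (adjusted p = 0.0744) without the block and -0.72 ± 0.15 (adjusted p = 0.0219) with it. At day 28 it was -0.90 ± 0.21 (adjusted p = 0.0546) without the block and -0.64 ± 0.19 (adjusted p = 0.22) with it, from 2 code pairs. At day 7 the level was 93.0 to 119 CPM in the positive and 103 to 121 CPM in the negative gate, and at day 14 it was 111 to 134 CPM in the positive and 106 to 136 CPM in the negative gate, with overlap at both. The change of the gate difference from undamaged hearts passed for 0 of 9 genes at each time, with 2 genes at day 7 and 0 at day 14 and day 28 at an unadjusted p under 0.05, and DESeq2 called 0. Of all genes, 0% passed at day 14 and day 28 and 0.00712% at day 7 with edgeR, and 0.0145%, 0.029% and 0.199% at day 14, day 28 and day 7 with DESeq2.

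Lif was 17.2, 18.3, 19.4, 20.9 and 25.9 CPM in the positive gate of undamaged hearts and 4.39, 5.18, 10.8 and 18.1 CPM in the negative gate. The 2 low negative values belonged to R60 libraries, and non-R60 library E5 of the negative gate lay within the positive range. The difference was 1.08 ± 0.43 (adjusted p = 0.211) without the block, 1.60 ± 0.27 (adjusted p = 0.00653) with it, and 2.0 ± 0.28 (adjusted p = 0.00778) in R60 libraries alone. At day 7, Lif was the other way in all 3 pairs, at 18.1, 14.1 and 45.9 CPM in the positive and 23.3, 20.2 and 66.5 CPM in the negative gate. The change of its gate difference between day 7 and undamaged hearts was -1.59 ± 0.73 (adjusted p = 0.799).

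Lifr was 55.5, 57.1, 71.5, 73.0 and 74.9 CPM in the positive and 71.3, 81.7, 122 and 156 CPM in the negative gate of undamaged hearts, a difference of -0.70 ± 0.24 (adjusted p = 0.125). The 2 highest negative values were both non-R60 libraries, and within that set the difference was -0.92 ± 0.21 (adjusted p = 0.036). Over 10 pairs of a positive and a negative library of the same time and code or number, Il6 was higher in the positive one in 8 (median 0.52 log2 of CPM plus 0.5), Il6ra in 9 (0.30) and Il11ra1 in 2 (-0.37). Osmr was higher in 5 of 10 (0.02), Socs3 in 6 (0.10), Il6st in 7 (0.03), Lif in 7 (0.36), Il11 in 7 (0.33) and Lifr in 4 (-0.28).

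**Figure D5:**
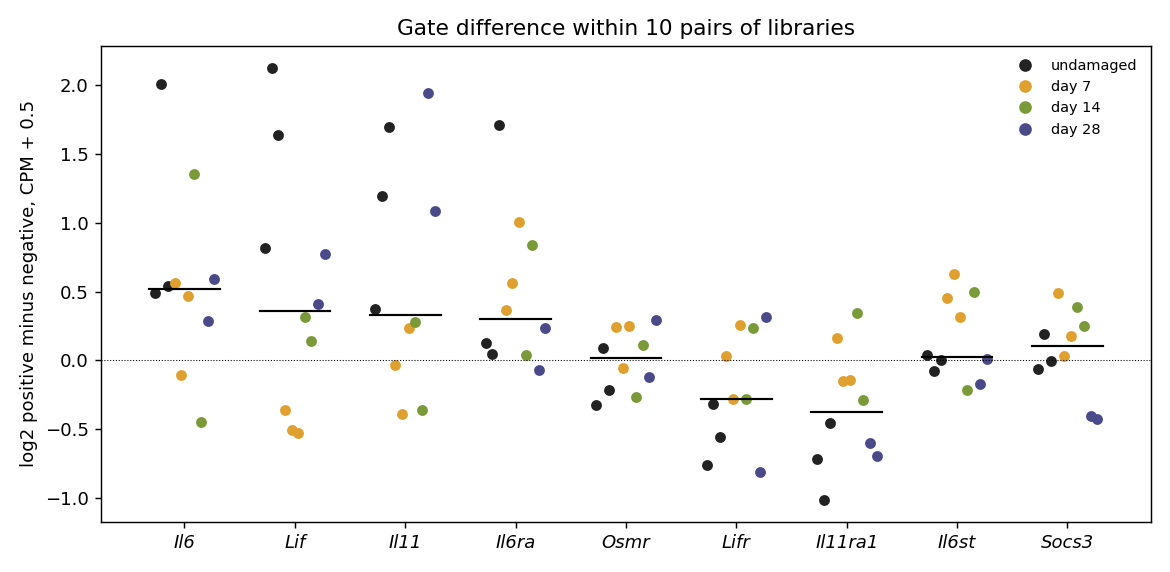
Log2 of positive minus negative, computed on CPM plus 0.5, for each of 10 pairs of libraries and each gene, coloured by time, with a bar at the median. Il6ra lies above 0 in 9 of 10 pairs and Il11ra1 below 0 in 8 of 10.

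Beyond the 9 genes, other listed members of the pathway were called over all libraries. Of all genes, 22.8% were called at day 7, 8.98% at day 14 and 5.39% at day 28. Ctf1, which encodes the gp130 cytokine cardiotrophin 1, averaged 2.88 ± 1.33 CPM at day 7 and 0.437 ± 0.373 CPM in undamaged hearts, near the detection limit there. It was higher at day 7 by 2.71 ± 0.61 (adjusted p = 0.0019) and at day 14 by 2.50 ± 0.65 (adjusted p = 0.014), the only one of 3 other ligands tested to pass. Il27ra, the receptor chain for interleukin 27, was lower at day 14 by 0.96 ± 0.23 (adjusted p = 0.00646) and at day 28 by 0.69 ± 0.19 (adjusted p = 0.0274). Cntfr, the ciliary neurotrophic factor receptor chain, was lower in the Sca-1 positive gate of undamaged hearts, -1.53 ± 0.24 (adjusted p = 0.000832), and of day 28, -1.67 ± 0.27 (adjusted p = 0.00492). Between these gates 3.1% and 0.594% of all genes were called.

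Of 12 transducers, 2 were higher and 1 lower at day 7, a share near that of all genes. The docking protein gene Gab1 was higher at day 7, 0.52 ± 0.10 (adjusted p = 0.000293), and at day 28, 0.48 ± 0.09 (adjusted p = 0.00211). The kinase gene Yes1 was higher at day 7, 0.83 ± 0.24 (adjusted p = 0.0123), and Stat5b lower, -0.53 ± 0.10 (adjusted p = 0.000212), while no transducer passed at day 14. Among the 11 inhibitors, Pias1 was lower at day 7, -0.34 ± 0.12 (adjusted p = 0.0345), and Socs5 higher at day 28, 0.36 ± 0.09 (adjusted p = 0.0217), with none at day 14. STAT3 response genes gave 2 higher and 1 lower of 18 at day 7, 3 and 1 at day 14, and 3 and 0 at day 28, beside the same backgrounds of 22.8%, 8.98% and 5.39% of all genes. At day 7 these were the metalloproteinase inhibitor Timp1, 1.84 ± 0.38 (adjusted p = 0.000941), the acute phase gene Saa3, 3.48 ± 0.91 (adjusted p = 0.00665), and, lower, the transcription factor Cebpd, -0.98 ± 0.31 (adjusted p = 0.0249).

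At day 14, Saa3 was higher by 6.87 ± 1.03 (adjusted p = 4.50e-05), Hp, the haptoglobin gene, by 2.24 ± 0.72 (adjusted p = 0.0486) and Timp1 by 1.65 ± 0.42 (adjusted p = 0.0117), and Cebpd was lower by 1.19 ± 0.37 (adjusted p = 0.0406). By day 28, Hp was higher by 2.64 ± 0.65 (adjusted p = 0.0144), Saa3 by 3.02 ± 0.89 (adjusted p = 0.0454) and Fgl2, a fibrinogen-like secreted protein gene, by 0.92 ± 0.27 (adjusted p = 0.0458). Between day 28 and day 7, Cebpd was higher by 1.14 ± 0.33 (adjusted p = 0.0233), Stat5b by 0.45 ± 0.10 (adjusted p = 0.00417) and Timp1 lower by 1.60 ± 0.41 (adjusted p = 0.012). The day 28 values pool both library sets, between which the change from undamaged hearts differed for most of the listed STAT3 response genes, as given above.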

How the data were processed

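Poly(A) RNA of sorted heart cells was sequenced in 26 libraries (stranded TruSeq mRNA kit, paired ends, per the labels' protocols). The authors deposited 1 table of raw read counts per library, and these counts are whole numbers for each of 24421 gene symbols. The submitters' processing notes name bcl2fastq, TopHat, Bowtie2, STAR, Cufflinks and mm10 with no version or role; the counting program and its strand setting are not given in the sources used here, so reads of overlapping or antisense genes cannot be told apart. The 2 rows that name no gene, reads outside genes (5.53% to 55.8% of a library) and ambiguous reads (0.128% to 0.646%), were left out.

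Counts were scaled by TMM, filtered with filterByExpr and tested with edgeR 4.0.16 in R 4.3.3 (quasi-likelihood test, Benjamini-Hochberg adjustment over all genes tested, threshold 0.05). Times were fitted over all libraries without the gate, since the labels lack it for 4 of them (13392 genes), gates over the libraries with a labelled gate (13812 genes), and the day 7 gates and the set comparison with the gate in the table names (14052 genes). CPM are relative to the counts in genes. Depth of 6792786 to 48836726 counts sets the precision, and a count of 0 allows up to 3 counts. Reads carry no molecular identifiers, so these limits cover counting error only. The fits were tested on simulated counts first. In 23376 of 24421 symbols (95.7%), all 9 members among them, the name was found in GENCODE M21, used for positions and exon lengths.

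Both gates share a code in 7 cases. Deviations from the group means, which leave the set out, correlated in every such pair, at r between 0.187 and 0.412 over 13812 genes. The 2 pairs of day 14 give 1 value by construction. Both libraries of a pair are also of the same set, and libraries with different codes were not compared. The correlation therefore cannot tell a shared code from a shared set, and pairing by code is an assumption. The fit with the code as a block is an alternative, given beside a result where it changes the call.

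Named genes are the 9 members, listed pathway genes that passed (up to 6 a list), and the 3 genes most correlated with each member among those with a mean of at least 5 CPM, on log2 of CPM plus 0.5, without predicted models. Members and lists were chosen with earlier results of these data known. Alternatives were DESeq2 1.42.0, RLE size factors, no filter, set or gate terms, each set alone, each library left out, libraries with Xist above 20 CPM left out, and the replicate block. Added after seeing the data were fits without the 3 libraries of fewest genes, with set and gate as terms, with libraries that share a code or title number summed, and the test of time by set with its alternatives. Some listed genes that passed are not reported here.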

Additional observations from a re-analysis of the deposited data

Results flagged for a closer look

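Chance flags about 1 in 20 groups, and 2 of the 72 groups of 4 to 10 libraries examined for the 9 genes held a library far from the others. Il6ra was 28.7 CPM in the Sca-1 positive day 7 library 4A, where the next highest of the 6 libraries had 18 CPM and the lowest 11.7 CPM. Il6ra was 7.46 CPM in the Sca-1 negative undamaged library B7, where the next lowest of the 9 libraries had 25.6 CPM and the highest 40.3 CPM. B7 negative is also among the 3 libraries with the fewest detected genes.

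The change after ligation differed between the R60 and the non-R60 set, by the test of the difference itself, for 7 combinations of gene and time. At day 28 the R60 change minus the non-R60 change was 6.03 log2 for Il6, 2.08 for Lif, 1.60 for Osmr and 2.49 for Socs3. At day 7 it was 2.81 for Il6, 1.06 for Osmr and 1.63 for Socs3. The non-R60 set has 2 libraries at day 7 and 3 at day 28. What the tag stands for is not given in the sources used here, so the set cannot be told apart from other ways in which these libraries differ.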

How the results depend on the processing

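The log2 differences of the 9 genes were compared with the main fit under alternatives other than leaving out a library or summing pairs. Of these, 810 stayed on the same side of the threshold, 18 lost the call and 25 gained one. The other 2 passed in the opposite direction and are called reversals. Where neither fit passed, the direction was not counted. Socs3 between the undamaged gates kept its direction in 8 of 17 alternatives, single libraries left out included. The reversals were in non-R60 libraries alone at day 28 against undamaged hearts, Il6 at -2.19 and Osmr at -0.64, whereas over all libraries they did not pass. Leaving out each library left 1328 on the same side of the threshold, with 39 calls lost and 10 gained. Summing libraries that share a code or title number was not run for the gates or within each set alone. Among the times it lost 5 calls and gained none: Il11ra1 and Socs3 at day 7, Lifr and Socs3 at day 14, and Il11ra1 at day 28 against day 7.

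The number of the 9 genes called at day 7, 4, became 1 without the libraries with high Xist and 2 with pairs summed. Lif was called besides with RLE size factors, with DESeq2 and with the gate as a term, and Il11 with set and gate as terms. Il11ra1 was lost without the 3 libraries of fewest genes. In non-R60 libraries alone Il6 was called and Il11ra1 was not. In R60 libraries alone Lif and Osmr were called higher, and Il6ra, Lifr and Socs3 were not called. At day 14 it was 2, and became 1 with no filter or with set and gate as terms. It became 0 with the set as a term, in R60 libraries alone, without the libraries with high Xist or with pairs summed. Without the 3 libraries of fewest genes Il6ra was called besides at day 14. At day 28 against undamaged the number called was 0, and became 2 in R60 libraries alone, 4 in non-R60 libraries alone and 1 without the 3 libraries of fewest genes. At day 28 against day 7 it was 1, and became 2 with DESeq2, in R60 libraries alone or without the libraries of fewest genes, and 0 in non-R60 libraries alone, without the libraries with high Xist or with pairs summed. For Sca-1 positive against negative it was 0 in undamaged hearts and at day 28. In undamaged hearts it became 1 with DESeq2 and in each set alone, and 2 with the replicate block. At day 28 it became 1 with DESeq2, with no filter, with the set as a term and without the libraries of fewest genes. Leaving out single libraries gave 1 to 5 at day 7, 0 to 3 at day 14, 0 to 1 at day 28, 0 to 2 at day 28 against day 7 and 0 to 1 between the gates at day 28. The replicate block changed no other count. The cause of these changes was not tested.

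Over all genes tested, calls at day 7 numbered 3048 and ranged from 880 to 3706 under the alternatives other than leaving out a library or summing pairs. At day 14 they numbered 1203 (568 to 1979), at day 28 722 (510 to 1719) and at day 28 against day 7 1557 (249 to 2685). Between the gates they numbered 428 in undamaged hearts (212 to 824), 29 at day 7 (6 to 66), 7 at day 14 (7 to 60) and 82 at day 28 (24 to 404). Between the R60 and the non-R60 set they numbered 40 (21 to 326). For the change of the gate difference they numbered 0 at day 14 (0 to 2), 0 at day 28 (0 to 4) and 1 at day 7 (1 to 28). Depth limits Il11 most, with 0 counts in 2 libraries.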
